A study of Homo sapiens with 6 samples.

Results

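VGF, the granins and the proteins that process prohormones were followed in WM266.4 melanoma cells after silencing of RIPK4. Of 10 gene names given (VGF, CHGA, CHGB, SCG2, SCG3, SCG5, PCSK1, PCSK2, CPE and NPTX2), 8 were found by symbol among the 24526 genes of the count table, and PCSK2 and CPE were not analysed here. The names belong to the regulated secretory pathway, and they were chosen by the VGF counts of these same libraries, which were already known to be lower in RIPK4.si. The difference of VGF between the groups is therefore given as a description, with no test. Tests are given for the other members.

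RNA was measured by poly(A) RNA-seq in 6 libraries of WM266.4, an established human melanoma cell line. The control.si group of 3 replicates was transfected with a negative control siRNA and the RIPK4.si group of 3 with an siRNA against RIPK4, a receptor-interacting serine/threonine kinase. Both groups share the line and the transient transfection, which need not reach every cell. RIPK4.si rests on a single siRNA design, so loss of RIPK4 and any other effect of that siRNA cannot be told apart. The libraries held between 28464057 and 31688095 read pairs on genes. RIPK4 had 2656, 2298 and 1739 read pairs in the control.si libraries and 585, 482 and 670 in the RIPK4.si libraries, which put it at 26.8% of its control.si level. CPM stands for counts per 1000000 read pairs of the TMM-normalized library, and errors are SDs over a group's 3 libraries. Differences are log2 fold changes of RIPK4.si over control.si from edgeR's quasi-likelihood fit over 16297 genes, with Benjamini-Hochberg adjusted p-values over all of them, and called genes are those with an adjusted value under 0.05.

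Endocrine cells and neurons keep peptides in dense-core vesicles and release them on a signal. Granins (CHGA, CHGB, SCG2, SCG3) are acidic proteins that help to form these vesicles and are themselves cut into peptides, as is VGF, which nerve growth factor induces. The convertases PCSK1 and PCSK2 cut the precursors at pairs of basic residues, CPE trims the exposed basic ends, SCG5 (7B2) is the chaperone of PCSK2, and NPTX2 is a secreted neuronal pentraxin that gathers AMPA receptors at synapses. Melanocytes come from the neural crest, as do chromaffin cells, the classical granin-rich cell type.

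Promoter sequence of 3 members is shown because a cAMP response element, the site of CREB family factors, is a known feature of several genes of this pathway. The sequences are from RefSeq on GRCh38.p14, each with 40 bases on both sides of the element, and capitals mark the full palindrome TGACGTCA.
VGF, chr7:101165601-101165688, minus strand: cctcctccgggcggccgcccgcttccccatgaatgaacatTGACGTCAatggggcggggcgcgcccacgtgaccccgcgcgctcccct
CHGA, chr14:92923056-92923143, plus strand: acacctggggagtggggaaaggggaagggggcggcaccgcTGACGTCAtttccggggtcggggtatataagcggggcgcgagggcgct
PCSK1, chr5:96433278-96433365, minus strand: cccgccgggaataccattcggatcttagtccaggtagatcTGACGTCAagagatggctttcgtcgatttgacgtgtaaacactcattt
The element began 79 bases before the annotated start in VGF, 54 before in CHGA and 77 before in PCSK1. PCSK1 has 2 windows in the table, and the other one held neither the element nor its core. RefSeq promoter windows, from 250 bases before to 50 after a start, were matched for 6 of the 8 members. The full palindrome was found in 3 of these 6, and in 1.84% of all 34796 windows of this length. The shorter core TGACG, searched on both strands, which is part of the full element, was found in all 6 of the members and in 24.5% of all windows. The member figures count genes with a match in any window, whereas the background counts single windows, so their units differ. The element was searched because it was already known in this pathway, and no enrichment is read from these figures. In SCG3, SCG5 and NPTX2 the core occurred without the palindrome. A match describes letters and does not show that a factor binds there.

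VGF was the most abundant member, also per kilobase, and had the widest gap between the groups. VGF (ENSG00000128564; chromosome 7 of GRCh38, 101162509 to 101165569, minus strand) overlaps no other annotated gene. Control.si replicates 1, 2 and 3 had 13779, 9369 and 6422 read pairs on VGF. RIPK4.si replicates 1, 2 and 3 had 1523, 1735 and 2056. All 3 RIPK4.si libraries were low and close to each other, while the control.si libraries spread 2.20-fold from the lowest to the highest. The lowest control.si library was still 3.06-fold above the highest RIPK4.si library, so the groups did not overlap.

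VGF stood at 319.7 ± 122 CPM in control.si and, at 18.6% of that, at 59.4 ± 7.13 CPM in RIPK4.si (SD, n = 3 each). Its log2 fold change was -2.43 with a standard error of 0.27, the ninth lowest value among the genes tested. Per kilobase of exon, VGF stood at 119.3 CPM in control.si, which ranked 227 among 16239 genes with a known exon length. In RIPK4.si it stood at 22.1 CPM per kilobase and ranked 1647. It remained above the median gene in both groups, which was at 2.89 CPM per kilobase in control.si and 2.87 in RIPK4.si.

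**Figure D1:**
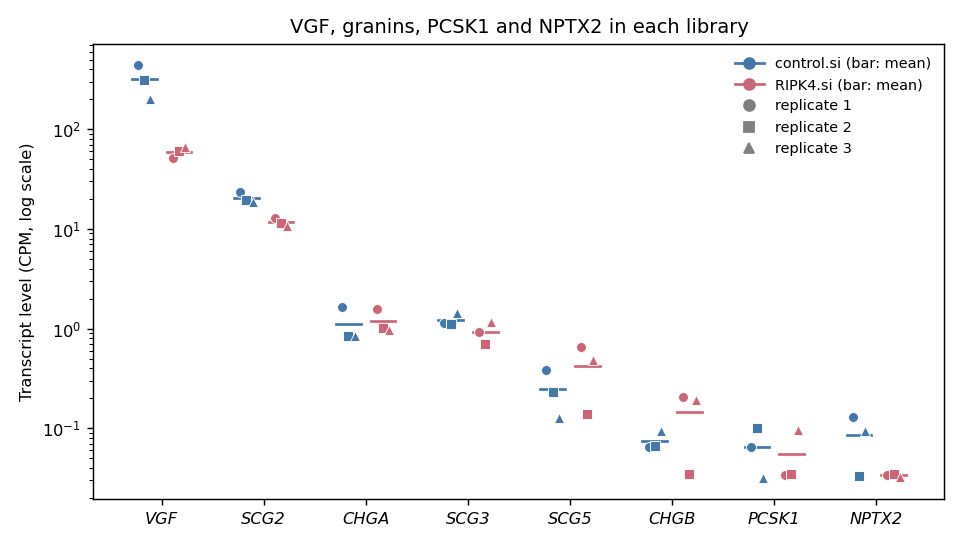
Transcript level in CPM (vertical axis, log scale) of the 8 members in each of the 6 libraries, control.si in blue and RIPK4.si in red. Symbols mark the replicate and horizontal bars the group mean. VGF and SCG2 are the members whose groups do not overlap, and CHGB, PCSK1 and NPTX2 lie at the bottom of the scale, with 1 to 6 read pairs per library.

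SCG2, the precursor of the peptide secretoneurin, was the second most abundant member. SCG2 (ENSG00000171951; chromosome 2, 223596940 to 223602361, minus strand) had 730, 590 and 593 read pairs in control.si replicates 1, 2 and 3. The RIPK4.si replicates 1, 2 and 3 had 380, 329 and 335. Each RIPK4.si library was under each control.si library, and the replicates of a group lay within 1.26-fold of each other in control.si and 1.20-fold in RIPK4.si. This gave 20.6 ± 2.60 CPM in control.si and 11.7 ± 1.12 CPM in RIPK4.si (SD, n = 3 each).

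SCG2 had a log2 fold change of -0.82 (standard error 0.17), with an adjusted p-value of 0.0761 from edgeR, so SCG2 was not called. The two-sided exact permutation test over libraries gave p = 0.1, the smallest value that 3 libraries against 3 allow. DESeq2 gave an adjusted p-value of 0.00606. Leaving out control.si replicate 3 gave 0.0294 with edgeR, a fit in which 1.78% of all genes were called. A fit with the GC trend taken out library by library gave 0.0494 and called 3.28% of all genes. Over all 14 alternatives the log2 fold change of SCG2 stayed between -0.89 and -0.69, and the adjusted p-value ranged from 0.00606 to 0.48, the highest without RIPK4.si replicate 3.

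CHGA, the granin used as a blood marker of neuroendocrine tumors, was measured at about 1 CPM in both groups. CHGA (ENSG00000100604; chromosome 14, 92923150 to 92935285, plus strand) had 51, 25 and 27 read pairs in control.si replicates 1, 2 and 3. The RIPK4.si replicates 1, 2 and 3 had 46, 29 and 30. In each group replicate 1 was the highest, and the groups overlapped. Mean levels were 1.11 ± 0.465 CPM in control.si and 1.18 ± 0.337 CPM in RIPK4.si (SD, n = 3 each). With edgeR the log2 fold change was 0.09 ± 0.37 (SE), at an adjusted p of 0.976, and it was below 0 without control.si replicate 2, control.si replicate 3 or RIPK4.si replicate 1. Its promoter carries the same full palindrome as that of VGF, shown above.

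SCG3, which binds CHGA and anchors it to the vesicle membrane, was at a similar level. SCG3 (ENSG00000104112; chromosome 15, 51681492 to 51721026, plus strand) had 35, 33 and 46 read pairs in control.si replicates 1, 2 and 3. The RIPK4.si replicates 1, 2 and 3 had 27, 20 and 36. The highest RIPK4.si library lay within the control.si range. Mean levels were 1.23 ± 0.193 CPM in control.si and 0.923 ± 0.233 CPM in RIPK4.si (SD, n = 3 each), and edgeR put the log2 fold change at -0.41 ± 0.31 (SE) with an adjusted p of 0.77. It ranged from -0.59 without RIPK4.si replicate 3 to -0.23 without RIPK4.si replicate 2.

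SCG5 (ENSG00000166922; chromosome 15, 32641676 to 32697098, plus strand) had 12, 7 and 4 read pairs in control.si replicates 1, 2 and 3. The RIPK4.si replicates 1, 2 and 3 had 19, 4 and 15. The groups overlapped, with RIPK4.si replicate 2 as low as the lowest control.si library. With edgeR its log2 fold change was 0.76 ± 0.62 (SE), at an adjusted p of 0.786, and it lay between 0.34 without RIPK4.si replicate 1 and 1.24 without control.si replicate 1. SCG5 shares 1129 exonic bases with the read-through gene ARHGAP11A-SCG5 on the same strand, so its counts are uncertain.

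The other 3 members did not pass edgeR's filter on low counts and were not tested in that fit. DESeq2 gave CHGB, PCSK1 and NPTX2 unadjusted p-values of 0.429, 0.882 and 0.397 and no adjusted ones. CHGB had 2, 2 and 3 read pairs in control.si and 6, 1 and 6 in RIPK4.si. The ratio of the group totals was 1.93, with an exact 95% interval for counting error of 0.715 to 5.71. PCSK1 had 2, 3 and 1 read pairs in control.si and 1, 1 and 3 in RIPK4.si, a ratio of 0.865 with an interval of 0.209 to 3.40. NPTX2 had 4, 1 and 3 read pairs in control.si and 1 in each RIPK4.si library, a ratio of 0.389 with an interval of 0.0665 to 1.62. All 3 were found at the edge of detection in both groups, and a difference was not detectable at this depth.

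Of the 4 members other than VGF that were tested, 0 were called by edgeR, where 0.767% of all genes tested were called. At an unadjusted p-value under 0.05, SCG2 was the 1 member of the 4 that passed, beside 10.8% of all genes. DESeq2 gave an adjusted p-value to 3 of the 4, all but SCG5, and called 1, again SCG2, beside 2.91% of the 15015 genes to which it gave an adjusted p-value. The groups did not overlap in 1 of the 4 members, with RIPK4.si lower, as in 9.4% of all genes tested, and in 0 with RIPK4.si higher, beside 8.23% of all genes. In either direction 17.6% of all genes had groups that did not overlap.

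VGF took most of the read pairs of the 8 members together. Their summed level was between 223.5 and 471.9 CPM in control.si and between 68.3 and 79.8 CPM in RIPK4.si. The share of VGF in this sum was between 90.5% and 94.3% in control.si and between 76.0% and 82.8% in RIPK4.si. The share of SCG2 was between 4.99% and 8.35% in control.si and between 13.5% and 19.0% in RIPK4.si. The level of SCG2 itself was lower in RIPK4.si, at 11.7 CPM against 20.6 CPM in control.si. Its larger share comes from the lower sum. Without VGF and SCG2, the summed level of the remaining 6 members was between 2.36 and 3.42 CPM in control.si and between 1.94 and 3.41 CPM in RIPK4.si. These ranges overlapped.

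The order of the members per kilobase of exon in control.si was VGF at 119.3 CPM, SCG2 at 8.005, SCG3 at 0.387, CHGA at 0.367 and SCG5 at 0.113 CPM per kilobase. NPTX2, CHGB and PCSK1 followed at 0.0283, 0.0169 and 0.0122 CPM per kilobase. SCG3 and CHGA were not separated, since their SDs were 0.0609 and 0.154 CPM per kilobase. In RIPK4.si VGF and SCG2 again led, with SCG2 at 4.54 CPM per kilobase, and CHGA at 0.39 stood beside SCG3 at 0.291.

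The control.si libraries differed from each other in how level followed the GC content of a gene, and the members lie at different points of that scale. Across genes, the Spearman correlation of a library's relative level with GC content was 0.555 in control.si replicate 1, 0.0815 in replicate 2 and -0.547 in replicate 3, and between -0.0788 and 0.165 in the RIPK4.si libraries. These correlations are across genes, which are not independent replicates. VGF has a GC content of 70.5% in its longest transcript, higher than 99.4% of the genes tested, and SCG2 has 42.5%, higher than 27.9% of them.

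**Figure D2:**
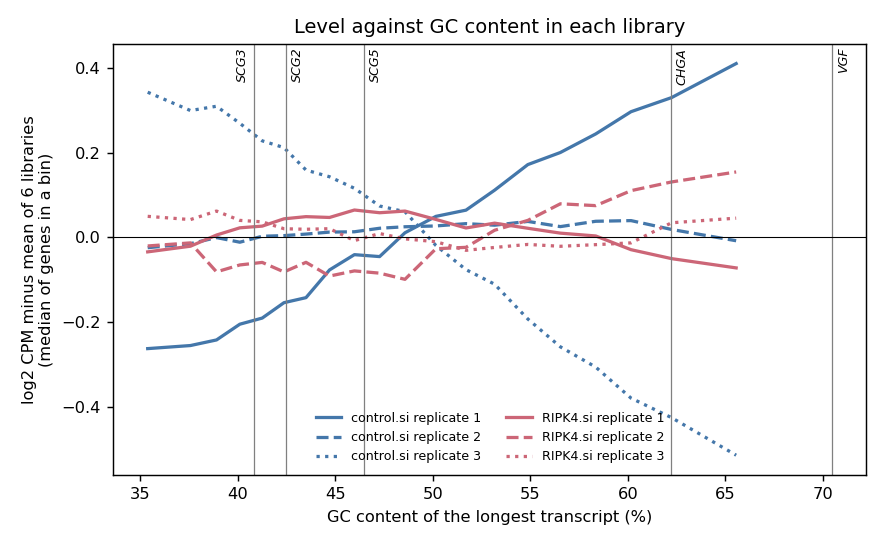
Median log2 CPM of a library relative to the mean of the 6 libraries (vertical axis) in 20 bins of genes ordered by GC content (horizontal axis, percent), for each library. Control.si replicates 1 and 3 run in opposite directions, the other 4 libraries stay near 0, and vertical lines mark the GC content of VGF, CHGA, SCG5, SCG2 and SCG3.

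At the GC content of VGF, the fitted trend on the log2 scale was 0.51, -0.02 and -0.60 in control.si replicates 1, 2 and 3 and between -0.11 and 0.15 in the RIPK4.si libraries. With this trend removed, the VGF level was 311.6, 316.7 and 305.7 CPM in control.si replicates 1, 2 and 3 and 56.1, 54.2 and 61.3 CPM in RIPK4.si replicates 1, 2 and 3. The highest control.si library was then 1.04-fold above the lowest, against 2.20-fold before. The lowest control.si library stood 4.98-fold above the highest RIPK4.si library. In this fit the log2 fold change was -2.44, with a standard error of 0.12 in place of 0.27.

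The control.si values of SCG2 moved the other way. With the trend removed, its level was 26.1, 19.6 and 16.3 CPM in control.si replicates 1, 2 and 3 and 12.7, 12.2 and 10.6 CPM in RIPK4.si replicates 1, 2 and 3. The spread between the highest and the lowest control.si library grew from 1.26-fold to 1.61-fold, and the groups still did not overlap. Its log2 fold change was then -0.81. VGF, whose group difference was known beforehand, and SCG2 were both lower in each RIPK4.si library before and after this step. The part of the GC trend in these differences was not tested.

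**Figure D3:**
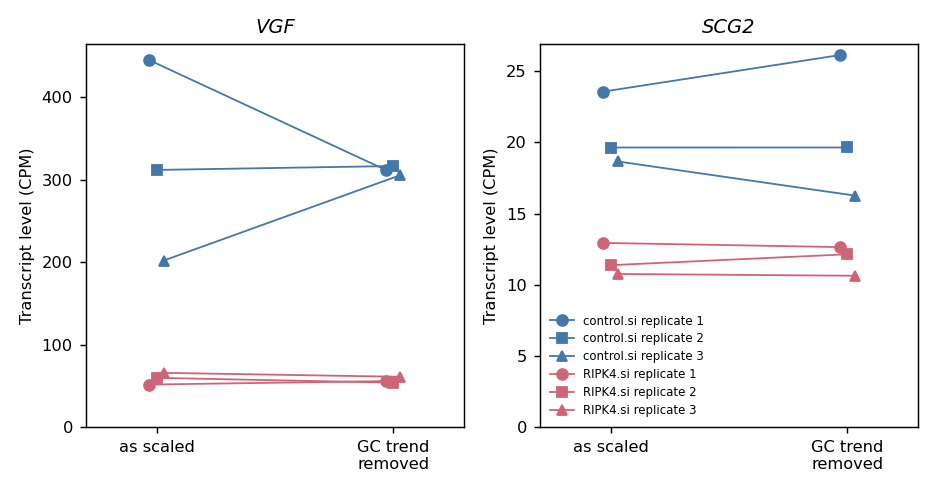
Level in CPM (vertical axis, from 0) of VGF (left) and SCG2 (right) in each library, as scaled by TMM and after removal of the library's trend on GC content; lines join the values of a library. The 3 control.si values of VGF come together at 305.7 to 316.7 CPM, whereas those of SCG2 move apart, and both genes stay lower in each RIPK4.si library.

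The 5 protein-coding genes whose pattern over the 6 libraries was most like that of VGF, by Pearson correlation of log2 CPM among 11935 genes, were ZNF853 (r = 0.997), FCGRT (0.995), RAB7B (0.995), CPNE5 (0.995) and ABCD4 (0.993). Their GC contents were 63.9%, 62.6%, 53.1%, 58.8% and 50.4%, and their log2 fold changes -1.59, -1.06, -0.61, -1.24 and -0.22. With 6 libraries that share the group difference and the GC trends, such values describe likeness only. SCG2 had r = 0.96 with VGF and stood at place 103 in this order.

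The genes around VGF on the chromosome were looked at next. Within 250 kb of VGF, 11 other genes were tested, 0 of which were called by edgeR, with a median log2 fold change of -0.06. AP1S1, the nearest gene at 0.913 kb, had a log2 fold change of -0.17 (adjusted p = 0.915 from edgeR). Of the 2 genes tested within 250 kb of SCG2, 0 were called by edgeR. None of these 13 neighbours had an unadjusted p-value under 0.05 with edgeR, and DESeq2 called 0 of those to which it gave an adjusted p-value, all but the microRNA gene MIR4653.

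The enzymes that act on VGF and granins in endocrine cells were set beside the members as gene lists. The counts for this and the following lists stand beside 0.767% of all genes called by edgeR, 10.8% with an unadjusted p-value under 0.05 and 2.91% called by DESeq2. Of the 7 proprotein convertases tested, 0 were called by edgeR, 1 had an unadjusted p-value under 0.05 and 0 were called by DESeq2. FURIN, the convertase of the constitutive pathway, was at 130.9 ± 51.0 CPM in control.si and 160.3 ± 11.1 CPM in RIPK4.si (SD, n = 3; adjusted p = 0.81 from edgeR). PCSK7 was at 10.4 ± 4.15 and 9.10 ± 0.674 CPM, with a log2 fold change of -0.19 that turned to 0.15 without control.si replicate 1.

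Of the 6 carboxypeptidases and peptide end-modifying enzymes tested, 0 were called by edgeR, 3 had an unadjusted p-value under 0.05 (10.8% of all genes) and DESeq2 called 1 (2.91% of all genes). QPCT, which closes the amino end of peptides as pyroglutamate, was at 463.0 ± 18.5 CPM in control.si and 321.3 ± 14.1 CPM in RIPK4.si (SD, n = 3; log2 fold change -0.53, adjusted p = 0.146 from edgeR and 0.047 from DESeq2). Its Golgi relative QPCTL was at 28.5 ± 8.35 CPM and 47.1 ± 11.02 CPM (log2 fold change 0.73, adjusted p = 0.301 from edgeR, and 0.042 with the GC trend removed and the replicate block, 1 of 14 alternatives that called it). PAM, which amidates peptide ends, was at 285.0 CPM in control.si and 261.2 CPM in RIPK4.si (adjusted p = 0.879). Of the convertase chaperones and inhibitors, SERPINA1 was tested beside SCG5, with 0 calls by edgeR and no unadjusted p-value under 0.05, while DESeq2 gave neither an adjusted p-value. The log2 fold change of SERPINA1 was -0.46 (adjusted p = 0.887 from edgeR). That value was -1.21 without RIPK4.si replicate 2 and -0.06 without RIPK4.si replicate 1.

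In the pentraxin list, to which NPTX2 belongs, 1 gene passed the test. NPTX1, the close neuronal relative of NPTX2, rose from 25.6 ± 1.68 CPM in control.si to 56.2 ± 3.43 CPM in RIPK4.si (SD, n = 3; log2 fold change 1.13, standard error 0.15, adjusted p = 0.0174 from edgeR). Its log2 fold change stayed between 1.09 and 1.20 over the 14 alternatives, 10 of which called it. It was not called without control.si replicate 2 (adjusted p = 0.171 from edgeR), nor without RIPK4.si replicate 1, 2 or 3 (0.11, 0.0738 and 0.172). NPTXR, the membrane-bound pentraxin receptor that forms complexes with both, was at 21.3 ± 3.30 CPM in control.si and 13.1 ± 0.306 CPM in RIPK4.si (log2 fold change -0.70, adjusted p = 0.126 from edgeR, 0.0336 from DESeq2). Of the 14 alternatives 3 called NPTXR: DESeq2, edgeR without control.si replicate 3 (adjusted p = 0.0304) and edgeR with the GC trend removed (0.0353). With the replicate block added to the last the adjusted p from edgeR was 0.051, and without control.si replicate 2 it was 0.604, the highest. In total 1 of the 3 pentraxins tested rose and 0 fell by edgeR, while 3 had an unadjusted p-value under 0.05, beside 10.8% of all genes, and DESeq2 called 2, beside 2.91%. In each of the 3 the groups did not overlap, as in 17.6% of all genes in either direction.

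The machinery for vesicle cargo, sorting and release held 28 tested genes, among them SCG2, SCG3 and CHGA. None was called by edgeR, 8 had an unadjusted p-value under 0.05, and DESeq2 called 1, SCG2, of the 26 to which it gave an adjusted p-value. BAIAP3, which acts in the return of vesicle proteins to the Golgi, was at 4.19 ± 1.77 CPM in control.si and 7.91 ± 0.755 CPM in RIPK4.si (SD, n = 3; log2 fold change 0.92, adjusted p = 0.263 from edgeR). The median log2 fold change of the list was -0.06, beside -0.02 over all genes tested.

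Of 39 peptide hormone and neuropeptide precursors listed, 10 passed the filter on low counts. None was called by edgeR, 2 had an unadjusted p-value under 0.05, and DESeq2 called 1, STC2, of the 8 to which it gave an adjusted p-value. STC2, a secreted glycoprotein hormone, was at 11.02 ± 1.79 CPM in control.si and 19.4 ± 3.89 CPM in RIPK4.si (SD, n = 3; log2 fold change 0.82, adjusted p = 0.134 from edgeR and 0.015 from DESeq2). BDNF, the neurotrophin known to induce VGF in neurons, was at 2.04 ± 0.165 CPM and 1.28 ± 0.299 CPM (log2 fold change -0.67, adjusted p = 0.403 from edgeR).

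**Figure D4:**
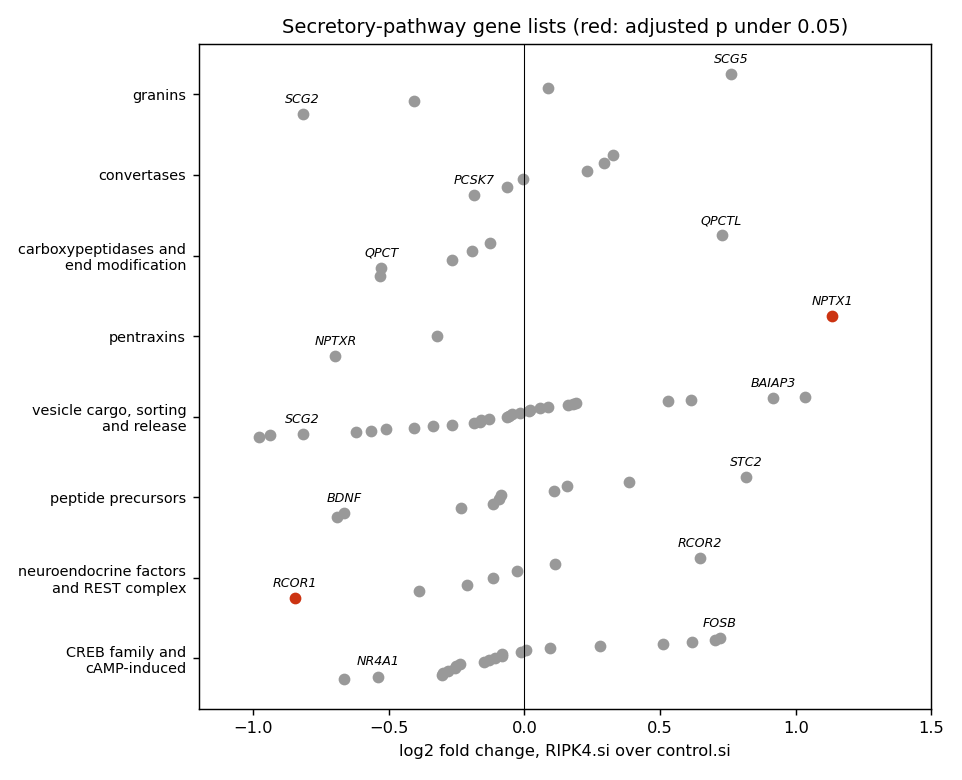
Log2 fold change of RIPK4.si over control.si (horizontal axis) of tested genes of 8 lists, 1 point per gene, with VGF and 1 gene not reported here left out; names mark genes chosen by p-value, and height within a row only separates the points. NPTX1 on the right and RCOR1 on the left are in red, with an adjusted p-value under 0.05 in edgeR, and the other points are grey.

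REST silences granin and VGF genes outside neurons and endocrine cells, and RCOR1 (CoREST) is a scaffold of its complex. REST itself was at 34.2 CPM in control.si and 33.5 CPM in RIPK4.si (log2 fold change -0.03, adjusted p = 0.99 from edgeR). RCOR1 fell from 64.7 ± 5.01 CPM to 36.0 ± 2.02 CPM (SD, n = 3; log2 fold change -0.85, standard error 0.14, adjusted p = 0.0398 from edgeR). The call was lost without control.si replicate 2 (adjusted p = 0.314 from edgeR) and without RIPK4.si replicate 1, 2 or 3 (0.224, 0.136 and 0.282). The paralog RCOR2 was at 6.19 ± 1.74 CPM and 9.69 ± 1.28 CPM (log2 fold change 0.65, adjusted p = 0.34 from edgeR). Of the 7 genes of this list that were tested, 1 fell and 0 rose by edgeR, 2 had an unadjusted p-value under 0.05, and DESeq2 called 1.

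Promoter windows of VGF, CHGA and PCSK1 match the cAMP response element in letters, which does not show that CREB family factors bind there. SCG2 had no promoter window. All 21 genes of the CREB family and cAMP-induced list were tested. None was called by edgeR or DESeq2, 3 had an unadjusted p-value under 0.05, and the median log2 fold change was -0.11. FOSB was at 2.73 ± 0.781 CPM in control.si and 4.498 ± 0.51 CPM in RIPK4.si (SD, n = 3; log2 fold change 0.72, adjusted p = 0.326 from edgeR). NR4A1, an orphan nuclear receptor that cAMP induces within minutes in many cells, was at 15.04 ± 2.11 CPM and 10.3 ± 0.502 CPM (log2 fold change -0.54, adjusted p = 0.251 from edgeR), and 1 of 14 alternatives called it. Its adjusted p from edgeR was 0.0473 with the GC trend removed, a fit that called 3.28% of all genes, and 0.0752 with the replicate block as well. C3AR1, a receptor for the VGF peptide TLQP-21, was at 5.79 ± 1.39 CPM and 3.92 ± 0.851 CPM (log2 fold change -0.56, adjusted p = 0.463), and C1QBP, the other, was at 220.6 ± 46.8 CPM and 242.1 ± 55.5 CPM. Of these 2 receptors edgeR and DESeq2 called 0, and neither had an unadjusted p-value under 0.05.

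Markers of the melanocyte lineage and of neuroendocrine cells were read in the same libraries. All 8 melanocyte lineage markers were detected, with a summed level between 3573 and 4012 CPM in control.si and between 2635 and 2759 CPM in RIPK4.si. PMEL, a melanosome fibril protein whose gene overlaps CDK2 on the opposite strand, was the 1 marker of the 8 called by edgeR (log2 fold change -1.30, adjusted p = 0.0111), while 4 of the 8, all lower in RIPK4.si, had an unadjusted p-value under 0.05 and DESeq2 called 3. Without control.si replicate 2 or any 1 of the RIPK4.si replicates PMEL was not called, with adjusted p-values from edgeR between 0.0738 and 0.129. DCT, an enzyme of melanin synthesis, was at 699.6 ± 101 CPM in control.si and 422.5 ± 13.6 CPM in RIPK4.si (SD, n = 3; adjusted p = 0.0854 from edgeR and 0.00352 from DESeq2). TYR, the tyrosinase, was at 1348 ± 112 CPM and 910.7 ± 36.1 CPM (adjusted p = 0.148 from edgeR and 0.0407 from DESeq2), and the groups overlapped in neither gene. S100B was at 703.5 ± 153 CPM and 504.9 ± 62.3 CPM (adjusted p = 0.391 from edgeR). The part of this melanocyte pattern in the values of VGF and SCG2 was not tested. TYRP1 was at 27.9 ± 2.05 CPM in control.si and 35.9 ± 6.21 CPM in RIPK4.si (SD, n = 3), and MITF was at 347.7 CPM in control.si and 357.9 CPM in RIPK4.si. Of the 11 neuroendocrine markers, 9 were in the table and 6 were tested, with 0 called by edgeR, 1 at an unadjusted p-value under 0.05 and 1, SCG2, called by DESeq2 of the 5 to which it gave an adjusted p-value. NCAM1 was at 0.422 CPM in control.si and 0.544 CPM in RIPK4.si. SYP, the vesicle protein synaptophysin, was at 3.71 CPM in control.si and 3.76 CPM in RIPK4.si. The summed level of this list was between 197.4 and 245.2 CPM in control.si and between 218.5 and 241.9 CPM in RIPK4.si, mostly from the enolase ENO2.

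Markers of other cell types were checked in the same libraries. The summed level of 5 leukocyte markers was between 2.00 and 2.62 CPM in control.si and between 1.81 and 2.28 CPM in RIPK4.si, with CD14 at 1.43 and 1.02 CPM. The summed level of the keratinocyte markers was between 10.5 and 11.9 CPM in control.si and between 12.2 and 16.3 CPM in RIPK4.si, mostly from KRT10 at 10.5 and 13.9 CPM, while KRT14 had 5 read pairs in replicate 1 of each group and KRT5 had 19 in control.si replicate 1 and 6 in RIPK4.si replicate 1, both with 0 in the other 4 libraries. The summed level of 5 neuron markers lay between 22.3 and 25.1 CPM in control.si and between 24.7 and 27.3 CPM in RIPK4.si, with GRIN1 at 3.98 and 2.47 CPM and SLC17A7 at 4.70 and 5.97 CPM in the 2 groups. That of 5 fibroblast markers lay between 636.5 and 819.6 CPM in control.si and between 515.6 and 1044 CPM in RIPK4.si, nearly all of it from COL1A2, with LUM at 0.597 and 1.09 CPM. Of these 4 lists, edgeR called no gene among the 10 tested, 1 had an unadjusted p-value under 0.05 and DESeq2 called 0, with no adjusted p-value for PTPRC and LYZ. Their part in the values of VGF and SCG2 was not tested. In bulk RNA, fewer cells with a transcript and less of it per cell cannot be told apart.

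**Figure D5:**
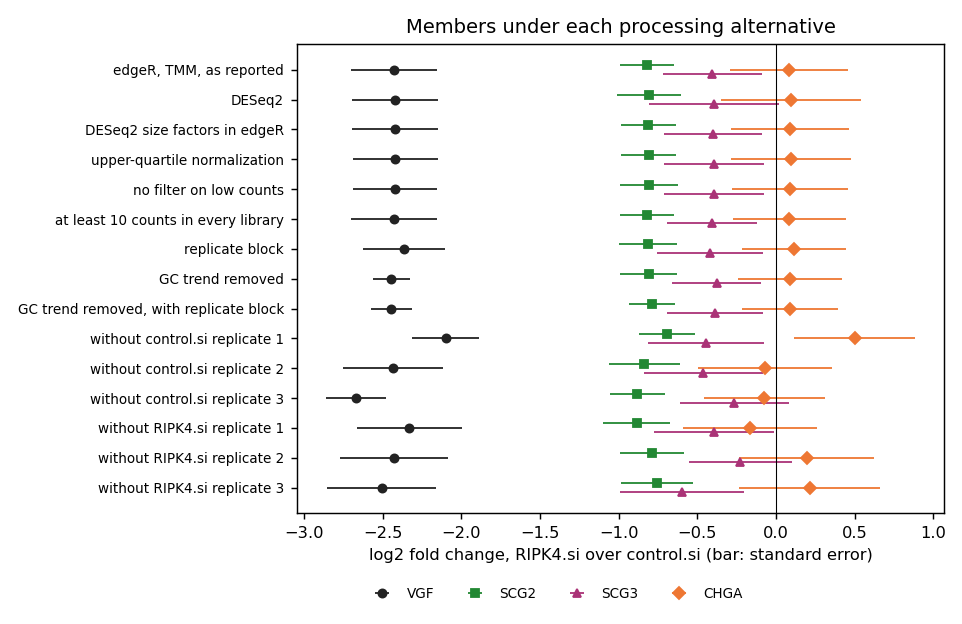
Log2 fold change (horizontal axis, bars are standard errors) of VGF, SCG2, SCG3 and CHGA under the reported fit and 14 alternatives (vertical axis). VGF stays between -2.67 and -2.10 and SCG2 between -0.89 and -0.69, whereas CHGA lies on both sides of 0.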

How the data were processed

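Paired reads of poly(A)-enriched RNA were made from 3 control.si and 3 RIPK4.si replicates, which the study calls biological. The authors used Cutadapt for trimming, TopHat for alignment (GRCh38.p13) and HTSeq, ignoring strand, for counting. Reads of a gene and of an antisense partner therefore cannot be separated. Count values were deposited without normalization, as whole read pairs, for 24526 genes. The authors also deposited a signal, counts divided by DESeq2 size factors, and the fold change (a ratio), its log2 value, its standard error, and the p-value and adjusted p-value of their own comparison, none of which were used.

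Those counts went into edgeR 4.0.16 (R 4.3.3) with TMM, filterByExpr, a quasi-likelihood test and Benjamini-Hochberg adjustment over 16297 genes. A standard error was the log2 fold change divided by the root of F. Exon length and GC content (longest transcript) were from GENCODE release 44, which held 24416 of the gene identifiers. Promoter sequences were RefSeq windows on GRCh38.p14. The study describes the experiments as independent, which the labels do not restate, and p-values measure the spread between these libraries. No 2 libraries of a group agreed within sampling noise (chi-square over its degrees of freedom 16.4 to 117.4). Intervals on counts cover counting error only.

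Alternatives were DESeq2 1.42.0, its size factors or upper-quartile scaling in edgeR, other filters on low counts, a block on replicate number, each library left out, and removal of each library's GC trend by lowess (span 0.3), alone and with the block. Library totals lay between 28464057 and 31688095. The members, lists and alternatives were chosen with earlier results of these data known. Genes named outside the members were those called in a list and, in each direction, the 1 with the smallest p-value, beside RIPK4 and the 5 genes most like VGF. FURIN, PAM, REST, SYP, ENO2, MITF, COL1A2, KRT14, KRT5, TYR, DCT, S100B, LYZ, PTPRC, MIR4653 and AP1S1 were named after their values were seen, and some genes that the rule names are not reported here. In simulated counts over 16330 genes, edgeR called 74.7% of genes changed by 1 and 100% of those changed by 2 on the log2 scale, with 7 unchanged genes called. The simulation gave all genes the same replicate spread, held no GC trend and changed only genes with a mean above 1 CPM. Its shares therefore do not give the power of these libraries, nor that for members near or under 1 CPM.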

Additional observations from a re-analysis of the deposited data

How the results depend on the processing

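The number of genes called over all genes was 125 with edgeR, 437 with DESeq2, 532 with the GC trend removed and 442 with the GC trend removed and the replicate block. With each library left out in turn it ranged from 0 to 295, with 295 calls when control.si replicate 3 was omitted, 70 for control.si replicate 1, 4 for RIPK4.si replicate 2, and 0 for control.si replicate 2 and for RIPK4.si replicates 1 and 3. Where edgeR called 0 genes, between 1086 and 1426 had an unadjusted p-value under 0.05. The number of members called other than VGF was 0 with edgeR and 1, SCG2, with DESeq2, with the GC trend removed and with the GC trend removed and the replicate block, and it ranged from 0 to 1 with each library left out. The log2 fold change of SCG2 was -0.81 with DESeq2, -0.81 with the GC trend removed and -0.79 with the replicate block as well (adjusted p = 0.0339), and between -0.89 and -0.69 with each library left out. The log2 fold change of VGF was between -2.67 (control.si replicate 3 left out) and -2.10 (control.si replicate 1 left out) over all 14 alternatives. That of CHGA ranged from -0.16 to 0.50 with each library left out, with -0.07 without control.si replicate 2 or 3 and -0.16 without RIPK4.si replicate 1. With each library left out, C1QBP ranged from -0.058 to 0.31, with -0.01 without control.si replicate 3, CD14 from -0.74 to 0.0018, and PCSK7 from -0.45 to 0.15. The cause of these changes was not tested. CHGB, PCSK1 and NPTX2 were not followed through the alternatives, and SCG5 was not in 2 of them, since DESeq2 gave it no adjusted p-value and it lacked 10 counts in every library. The replicate block alone gave 131 calls and changed no call of SCG2, CHGA, SCG3, SCG5, NPTX1, RCOR1 or PMEL; same-numbered libraries deviated together with r = -0.24, 0.25 and 0.35, so the numbers were not taken to pair the cultures, although KRT5 and KRT14 had read pairs in replicate 1 of both groups and in no other library and LYZ had 0 and 1 read pairs in these 2 libraries against 9 to 24 in the others, and control.si replicate 1 correlated best with RIPK4.si replicate 2. Depth limits the members at or under 1 CPM.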
